A study of Mus musculus with 7 samples.

Results

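The genes described here are 45 genes of DNA replication and cell division, measured by RNA sequencing in the maternal islets of 7 pregnant mice. They were taken by name, ignoring case, from a gene table of 34082 rows, and each of the 45 names matched 1 row. By role, 16 belong to S phase, when DNA is copied, and 29 to mitosis, when the copies are pulled apart. The S phase genes comprised 8 for the licensing and firing of replication origins, 3 for entry into S phase and 5 for nucleotide supply and the replication fork. The mitosis genes comprised 6 of the cyclin-CDK1 core and its regulators, 7 mitotic kinases, checkpoint and anaphase-promoting complex genes, 5 chromosomal passenger, centromere and kinetochore genes, 7 spindle and cytokinesis genes, and 4 chromatin and other markers of proliferation.

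The islets came from 4 βPrlR+/- mice and 3 Prlr+/- mice of the C57BL/6 background on day 15 of pregnancy, and each mouse gave 1 library. The study's methods describe overnight culture of the picked islets in medium with serum, so the values need not be those at isolation. In βPrlR+/- mice the prolactin receptor gene Prlr was deleted by Pdx1CreER, a tamoxifen-inducible Cre recombinase driven by the Pdx1 promoter, after 4 mg of tamoxifen per day for 5 days at 8 weeks of age. Prlr+/- mice lack 1 Prlr allele in the whole body, carried no Cre and had no tamoxifen, so genotype, Cre and tamoxifen cannot be told apart between the groups. The sample labels call the β-cell deletion homozygous and give 3 to 4 months of age, whereas the study's methods call it heterozygous and give 4 to 5 months. The βPrlR+/- samples are titled CkoWt, which is not explained. No wild-type or non-pregnant islets were analysed here, so no value below shows an effect of pregnancy or of receptor loss as such.

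Cells that divide copy their DNA once and then separate it. E2F transcription factors switch on the genes of replication, and the MCM helicase is loaded on origins ahead of S phase. Genes of mitosis are switched on later, through the factors that bind CHR elements and CCAAT boxes in their promoters, among them FOXM1, B-MYB and NF-Y. In rodents the islets enlarge during pregnancy, under placental lactogen and prolactin acting on the prolactin receptor, and division of β-cells contributes to this growth. Islets also hold α-, δ-, endothelial, immune and other cells, and isolated islets carry exocrine acinar tissue. In bulk RNA, fewer dividing cells and less RNA of these genes per cell cannot be told apart.

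Promoter sequences of a few genes on which the results turn are shown first. The mitosis windows printed were chosen among those that hold the CHR element, to show where the motifs lie, and fewer than all mitosis windows hold it. RefSeq promoter windows of GRCm38.p6 matched 37 of the 45 genes with 40 windows, since ECT2, MCM7 and PRC1 have 2 each, and FOXM1, CCNA2, CCNE2, CDC25C, AURKB, KIF20A, TPX2 and MCM4 were not matched. The 250 bases before the annotated start were searched on both strands for the CHR element TTTGAA, the CCAAT box CCAAT, and the E2F site as TTTCCCGC, TTTGGCGC or TTTCGCGC. In the sequences, written 5′ to 3′ on the gene's strand, capitals mark every match on either strand, so a box on the opposite strand reads ATTGG. Matches of different motifs shared no base in these windows, whereas matches of the same motif can overlap, as in UBE2C and MCM6. The first is that of the proliferation marker MKI67, the next 4 are mitosis genes that followed it, TK1 is the S phase gene that followed it, and MCM6 is an S phase gene with a negative correlation.
MKI67 (chr7:135716380-135716629, minus strand): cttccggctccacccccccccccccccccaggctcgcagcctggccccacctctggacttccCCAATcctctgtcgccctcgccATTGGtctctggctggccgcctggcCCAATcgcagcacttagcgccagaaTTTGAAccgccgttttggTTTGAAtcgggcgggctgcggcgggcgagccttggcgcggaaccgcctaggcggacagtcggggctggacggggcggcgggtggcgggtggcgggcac
TOP2A (chr11:99024190-99024439, minus strand): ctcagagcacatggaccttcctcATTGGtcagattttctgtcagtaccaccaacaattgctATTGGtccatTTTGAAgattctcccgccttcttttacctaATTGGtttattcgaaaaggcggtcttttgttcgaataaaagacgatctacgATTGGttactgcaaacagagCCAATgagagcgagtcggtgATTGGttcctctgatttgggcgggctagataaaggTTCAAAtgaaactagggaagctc
CDK1 (chr10:69352913-69353162, minus strand): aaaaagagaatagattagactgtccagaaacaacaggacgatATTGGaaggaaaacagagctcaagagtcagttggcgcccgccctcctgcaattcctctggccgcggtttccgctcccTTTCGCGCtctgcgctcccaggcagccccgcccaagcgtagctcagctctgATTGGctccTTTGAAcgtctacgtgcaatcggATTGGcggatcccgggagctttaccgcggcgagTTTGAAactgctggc
CCNB2 (chr9:70421555-70421804, minus strand): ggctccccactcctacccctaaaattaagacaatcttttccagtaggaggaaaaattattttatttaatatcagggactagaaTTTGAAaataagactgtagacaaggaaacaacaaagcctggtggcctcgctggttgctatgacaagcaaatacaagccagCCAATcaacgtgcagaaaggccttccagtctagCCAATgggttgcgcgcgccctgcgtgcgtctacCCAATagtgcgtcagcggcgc
UBE2C (chr2:164769679-164769928, plus strand): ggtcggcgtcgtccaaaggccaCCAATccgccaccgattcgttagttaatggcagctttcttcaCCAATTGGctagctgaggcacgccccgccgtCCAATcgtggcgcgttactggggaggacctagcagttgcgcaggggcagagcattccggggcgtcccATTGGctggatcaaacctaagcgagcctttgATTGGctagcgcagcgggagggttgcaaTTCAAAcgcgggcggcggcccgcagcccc
TK1 (chr11:117826015-117826264, minus strand): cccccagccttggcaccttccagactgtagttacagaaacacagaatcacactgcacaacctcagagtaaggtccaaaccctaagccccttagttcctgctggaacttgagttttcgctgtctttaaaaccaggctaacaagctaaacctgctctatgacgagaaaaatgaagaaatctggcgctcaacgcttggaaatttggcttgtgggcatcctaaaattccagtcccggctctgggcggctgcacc
MCM6 (chr1:128359706-128359955, minus strand): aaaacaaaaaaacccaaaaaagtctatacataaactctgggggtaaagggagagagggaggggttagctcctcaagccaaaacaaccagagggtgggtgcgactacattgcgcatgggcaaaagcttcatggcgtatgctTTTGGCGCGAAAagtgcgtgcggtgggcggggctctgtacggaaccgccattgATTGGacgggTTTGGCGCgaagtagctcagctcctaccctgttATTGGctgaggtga

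The mitosis windows held the CHR element in 11 of 25 (44.0%) and the CCAAT box in 23 of 25 (92.0%), with 16 of 25 holding 2 or more boxes. Of all 32851 RefSeq promoter windows of this length, 16.0% held the CHR element, 33.8% the CCAAT box and 10.1% at least 2 CCAAT boxes. The S phase windows held the CHR element in 1 of 15 (MCM2), the CCAAT box in 9 of 15 (60%) and an E2F site in 4 of 15 (26.7%), against 4.00% of the mitosis windows and 1.53% of all windows for the E2F site. The MKI67 window above holds 2 CHR elements and 3 CCAAT boxes, TOP2A holds 2 and 6, and MCM6 holds no CHR element, 2 CCAAT boxes and 3 E2F matches, of which 2 overlap. The TK1 window held none of these letters, nor did those of BIRC5, E2F1, TYMS, CCNE1, NUSAP1 and CDT1. HMGB2, which did not follow MKI67 over all mice, held 2 CHR elements and 4 CCAAT boxes. Its Pearson's r with MKI67 was 0.893 when βPrlR+/- mouse 2 and Prlr+/- mouse 2 were left out. Following MKI67 means here a positive r with it at an unadjusted p under 0.05 by the exact test given below. AURKA, BUB1B and CENPE, the other mitosis genes outside this threshold, held no CHR element, although CENPE had an r of 0.704. CDCA8 and CCNB1, close followers with 3 and 2 CCAAT boxes, held none either. Nor did the followers BIRC5, NUSAP1, PLK1, CDCA3, BUB1, CENPF, CENPA and KIF23. The followers TOP2A, CDK1, CCNB2, UBE2C, CDC20, ECT2 and KIF11 held it, as did PRC1 in 1 of its windows. Whether the CHR element goes with following MKI67 was not tested. A match is a description of the letters and not of a bound site, and a window without a match says only that these letters are not in it. The windows of TK1 and BIRC5, the S phase and the mitosis gene that followed MKI67 most closely, lie on chromosome 11 with 22722 bases between them.

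Most of the 45 genes were low. The values are TPM, a transcript abundance that accounts for transcript length and the library total, divided by a median-ratio size factor for each mouse and called scaled TPM here. A mean over the 7 mice of at least 5 scaled TPM was reached by 4 genes, and 33 of the 45 lay under 2 and 24 under 1. The median of the gene means was 0.678 scaled TPM for the 29 mitosis genes and 2.42 for the 16 S phase genes, against 7.42 for the 14840 genes of the table with a mean of at least 0.5 TPM. None of the 45 was listed at 0 in any mouse. The study's methods give the read total of the libraries as a range, but TPM keeps no read count per gene, and the counting error of low genes was not estimated here.

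The highest gene was PCNA, the sliding clamp of the replication fork. It measured 30.4, 27.9, 27.9 and 25.5 scaled TPM in βPrlR+/- animals 1 to 4, against 31.4, 29.6 and 29.2 in Prlr+/- animals 1 to 3. Its levels lay close together in all mice, and the groups overlapped. HMGB2, a chromatin protein, came next with 9.68, 12.8, 11.2 and 11.5 scaled TPM in βPrlR+/- animals against 10.6, 9.83 and 13.8 in Prlr+/- animals. Its highest values were in Prlr+/- mouse 3 and βPrlR+/- mouse 2. E2F1, a transcription factor of S phase entry, measured 7.67, 6.77, 4.49 and 5.32 scaled TPM in βPrlR+/- animals against 5.92, 7.67 and 7.37 in Prlr+/- animals, again with overlap. MCM7, a subunit of the replicative helicase, was the steadiest of the 45, with 5.64, 5.23, 5.40 and 5.31 scaled TPM in βPrlR+/- animals against 5.44, 4.92 and 4.74 in Prlr+/- animals.

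The proliferation markers showed another pattern. MKI67, which encodes a protein that coats mitotic chromosomes and marks cycling cells, measured 0.510, 0.154, 0.639 and 0.615 scaled TPM in βPrlR+/- animals 1 to 4 against 0.393, 1.44 and 0.990 in Prlr+/- animals 1 to 3. The lowest value was in βPrlR+/- mouse 2 and the highest, 9.35-fold above it, in Prlr+/- mouse 2. TOP2A, the topoisomerase that untangles sister chromatids, measured 0.933, 0.251, 0.911 and 1.03 scaled TPM in βPrlR+/- animals against 0.482, 1.95 and 1.18 in Prlr+/- animals. The same 2 mice were the extremes, 7.77-fold apart, and Prlr+/- mouse 1 lay below 3 of the 4 βPrlR+/- mice for both genes.

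Genes of the cyclin-CDK1 core, which drives entry into mitosis, had similar orders. CDK1, the mitotic kinase, measured 0.580, 0.229, 0.415 and 0.590 scaled TPM in βPrlR+/- animals against 0.318, 1.12 and 0.743 in Prlr+/- animals. CCNB2, a B-type cyclin that binds it, measured 1.40, 0.539, 1.09 and 1.501 scaled TPM in βPrlR+/- animals against 0.462, 1.64 and 2.12 in Prlr+/- animals. Both were low in βPrlR+/- mouse 2 and Prlr+/- mouse 1 and high in Prlr+/- mice 2 and 3, whose order differed between the 2 genes. CCNB1, CCNA2, FOXM1 and CDC25C, the other cyclins, a mitotic transcription factor and the phosphatase that activates CDK1, had means of 0.839, 1.12, 0.487 and 0.254 scaled TPM.

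Among the mitotic kinases, checkpoint and anaphase-promoting complex genes, UBE2C was the highest. It encodes the ubiquitin-conjugating enzyme of that complex, and it measured 3.03, 1.34, 2.27 and 3.03 scaled TPM in βPrlR+/- animals against 1.79, 3.76 and 2.97 in Prlr+/- animals. The order was again βPrlR+/- mouse 2 lowest and Prlr+/- mouse 2 highest. AURKA, the kinase of the centrosome, and BUB1B, a kinase-like protein of the spindle checkpoint, did not share it. AURKA was lowest in βPrlR+/- mouse 3 (1.22 scaled TPM) and BUB1B was highest in βPrlR+/- mouse 2 (0.699). BUB1, the checkpoint kinase, had the largest relative range of the 45 genes, 9.42-fold, between 0.0360 scaled TPM in Prlr+/- mouse 1 and 0.339 in Prlr+/- mouse 2, at levels that are among the lowest of the set.

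BIRC5, or survivin, of the chromosomal passenger complex measured 0.510, 0.271, 0.652 and 0.568 scaled TPM in βPrlR+/- animals against 0.517, 1.55 and 0.992 in Prlr+/- animals. Prlr+/- mice 2 and 3 lay above all 4 βPrlR+/- mice, and Prlr+/- mouse 1 lay among them. CENPA, the histone H3 variant of centromeres, measured 1.51, 0.652, 1.07 and 1.80 scaled TPM in βPrlR+/- animals against 0.754, 1.69 and 1.80 in Prlr+/- animals. Here the 2 groups covered nearly the same range. PRC1, which bundles the microtubules of the spindle midzone, measured 1.26, 0.956, 1.30 and 1.57 scaled TPM in βPrlR+/- animals against 1.11, 2.32 and 1.78 in Prlr+/- animals, with the extremes in the same mice as MKI67.

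In the S phase roles, TK1 had the widest relative spread. TK1 encodes thymidine kinase, which makes a DNA precursor, and it measured 0.611, 0.398, 0.751 and 0.734 scaled TPM in βPrlR+/- animals against 0.527, 1.18 and 0.918 in Prlr+/- animals. Its order over the 7 mice was the same as that of MKI67. MCM3, a helicase subunit, measured 0.864, 0.631, 0.898 and 0.731 scaled TPM in βPrlR+/- animals against 0.595, 0.832 and 0.517 in Prlr+/- animals. It was highest in βPrlR+/- mice 1 and 3. The 10 genes with a mean under 0.5 TPM, namely FOXM1, KIF11, KIF23, CDT1, CENPF, CENPE, CDC25C, AURKB, BUB1 and CDC6, lay between 0.0360 and 0.791 scaled TPM in all mice.

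**Figure D1:**
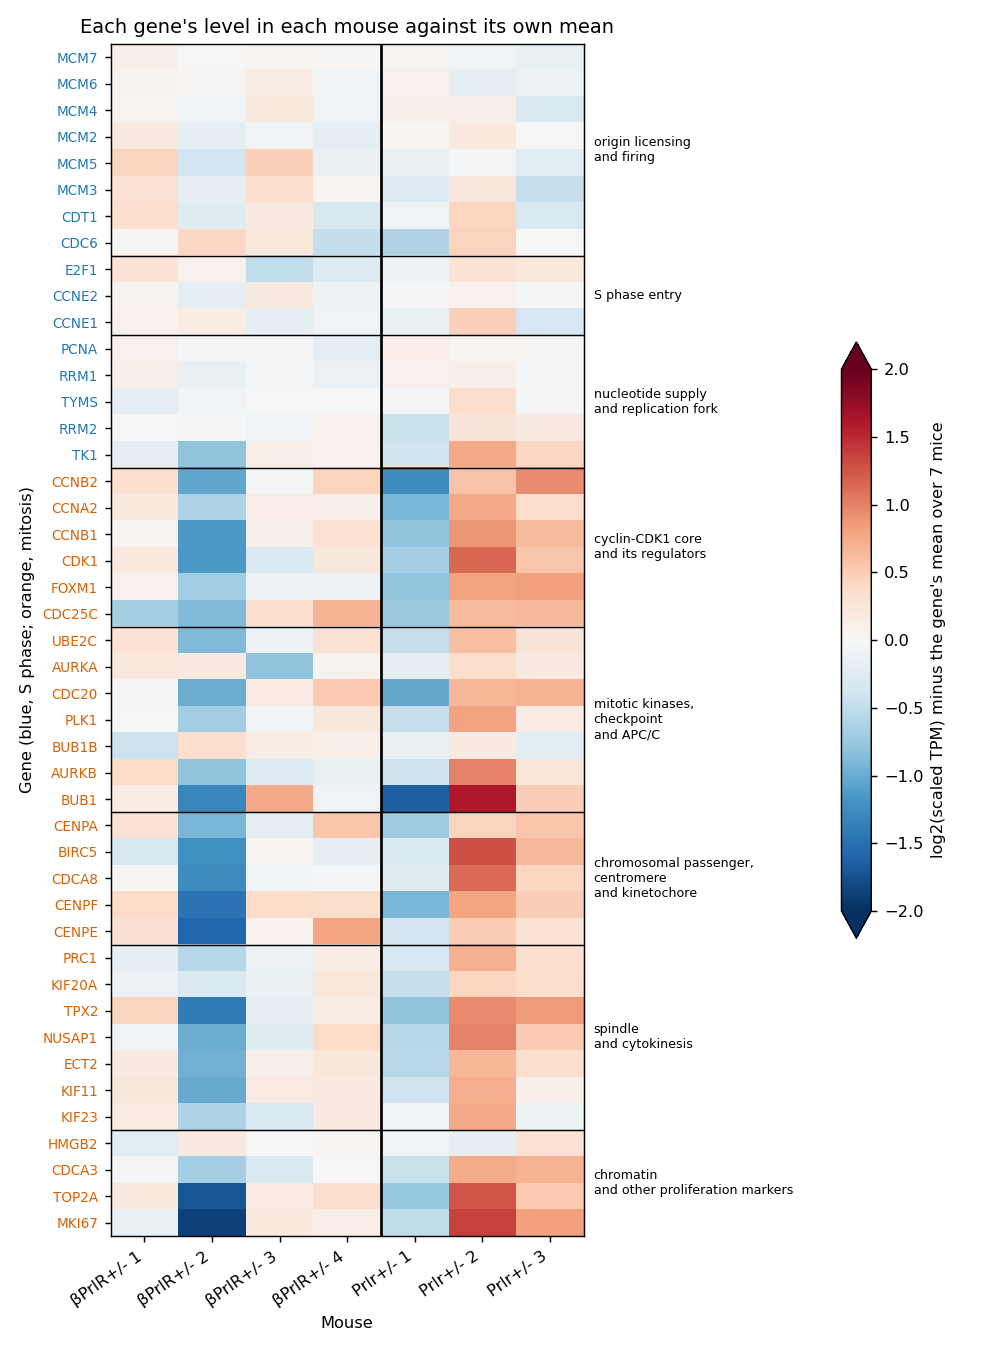
Colour gives log2(scaled TPM) of each of the 45 genes (rows, grouped by role) in each of the 7 mice (columns) minus the gene's mean over the mice. The mitosis rows are mostly blue in βPrlR+/- mouse 2 and Prlr+/- mouse 1 and mostly red in Prlr+/- mice 2 and 3, while most S phase rows other than TK1 are paler.

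**Figure D2:**
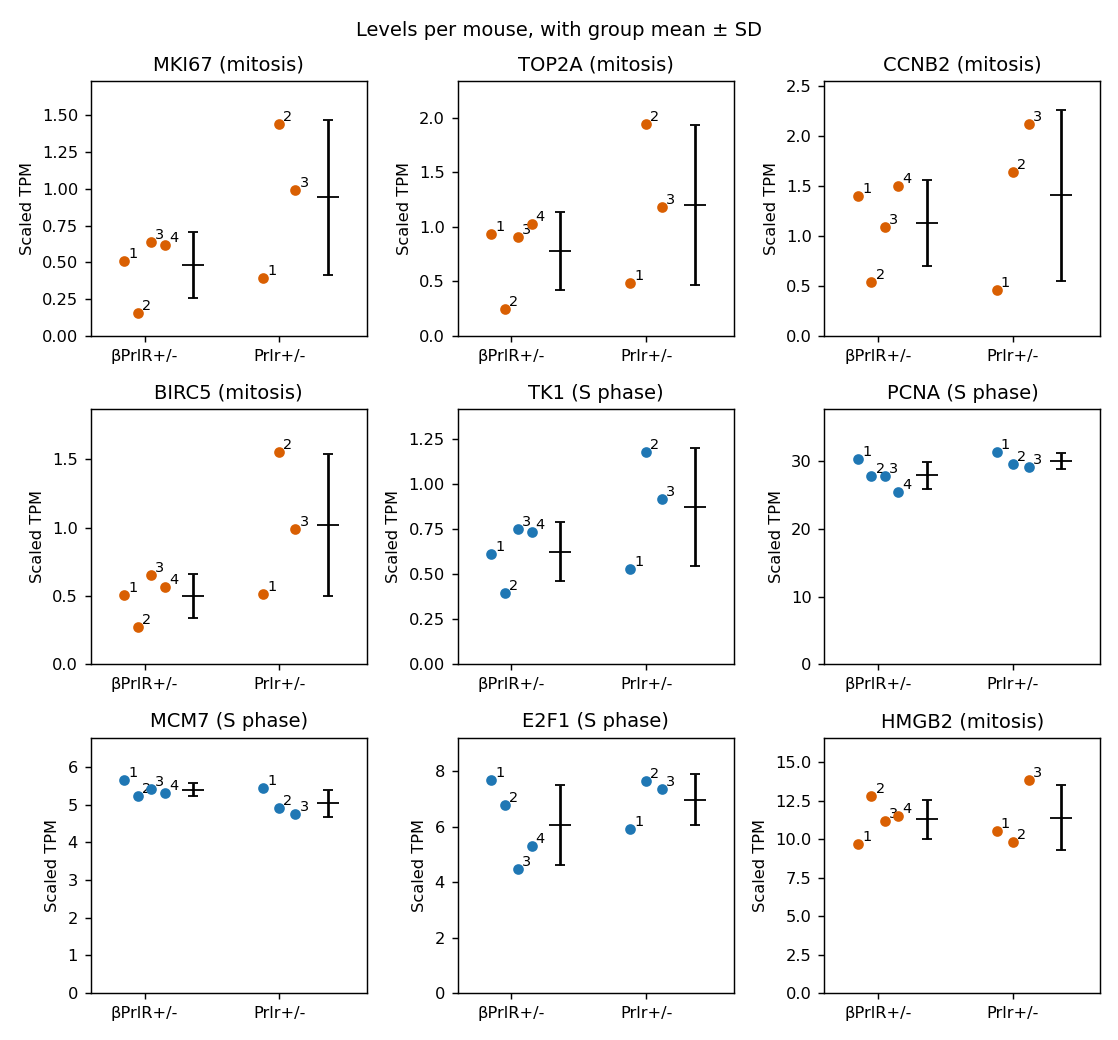
Points are scaled TPM in single mice, numbered within each group, for 9 of the genes, and bars beside them give the group mean ± SD (n = 4 βPrlR+/- and n = 3 Prlr+/- mice). The groups overlap in every panel, and MKI67, TOP2A, BIRC5 and TK1 share their highest and lowest mouse.

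The spread between mice separated the roles as well. The coefficient of variation over the 7 mice had a median of 43.3% for the 29 mitosis genes (13.5% for HMGB2 to 72.0% for BUB1) and 13.6% for the 16 S phase genes (5.98% for MCM7 to 35.4% for TK1). The median over the 14840 genes tested was 11.4%. Low genes vary more, so genes of like level were also compared. Between 0.5 and 2 scaled TPM the 18 mitosis genes had a median of 44.0%, the 5 S phase genes 20.3% and the 3205 genes of the whole data set 23.1%. BUB1B, at 17.7%, was the mitosis gene in this window with the least spread, below the median of all its genes.

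**Figure D3:**
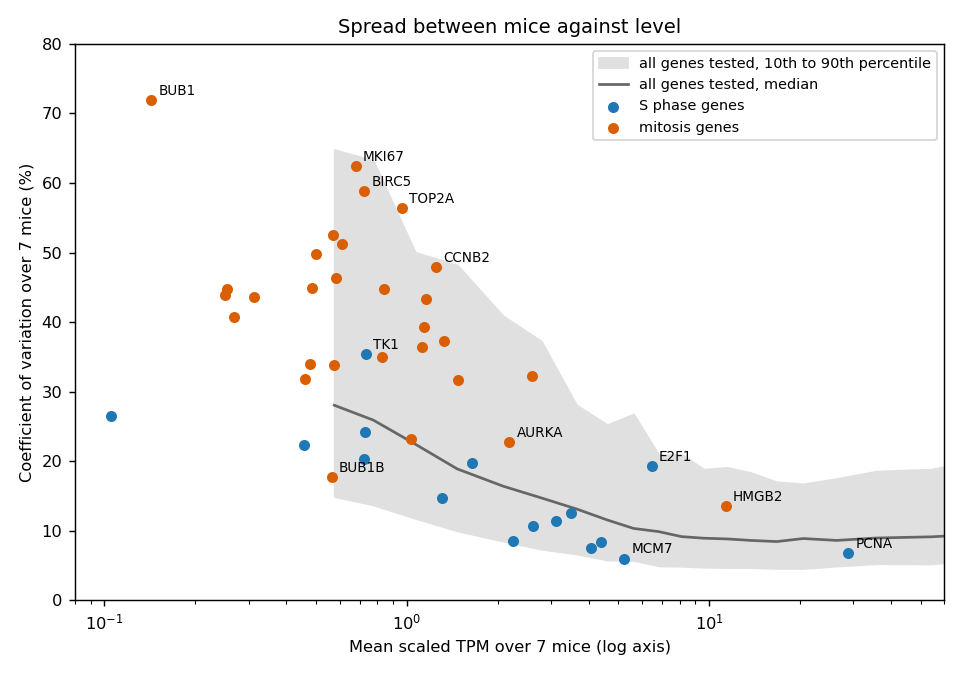
The coefficient of variation over the 7 mice (vertical axis, %) is plotted against the mean scaled TPM (horizontal log axis) for the 45 genes, with the median and the 10th to 90th percentile of all genes tested in 20 bins of level. Most mitosis genes lie above the grey median line, and most S phase genes lie near or below it.

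The extremes fell on few mice. Prlr+/- mouse 2 had the highest level of the 7 mice for 29 of the 45 genes, 21 of them mitosis genes, and for 22 of the 35 genes with a mean of at least 0.5 TPM. Of all 14840 genes at that level, 21.7% were highest in this mouse and 21.6% were lowest in it, so this library was often at an extreme in both directions. βPrlR+/- mouse 2 had the lowest level for 25 of the 45 genes, 20 of them mitosis genes, and for 19 of those 35, against 12.2% of all genes. On log2(scaled TPM), the mean deviation of the 29 mitosis genes from their own means came to 0.067, -0.90, -0.017 and 0.21 in βPrlR+/- animals 1 to 4, against -0.59, 0.78 and 0.45 in Prlr+/- animals 1 to 3. The range within each group was thus wider than the difference between the group means of -0.16 ± 0.50 (SD, n = 4) and 0.21 ± 0.71 (SD, n = 3). For the 16 S phase genes the same quantity ran from -0.11 in βPrlR+/- mouse 4 to 0.22 in Prlr+/- mouse 2.

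How closely genes moved together was measured by Pearson's r over the 7 mice, on log2(scaled TPM + 1). Over the 406 pairs of mitosis genes the median r was 0.856, and 61.3% of the pairs had an r of at least 0.8. Over the 120 pairs of S phase genes the median was 0.269 with 5% of pairs at 0.8 or more, and between the 2 phases it was 0.251 with 6.03%. For all pairs of the 14840 genes the median was 0.015, and 3.36% reached 0.8. The 7 points of each r are the same 7 libraries throughout, so the pairs are not independent and these are descriptions. Taken as deviations from the group means, the mitosis median was 0.859, so the shared movement was as strong within the groups.

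Leaving out βPrlR+/- mouse 2 and Prlr+/- mouse 2, the mice farthest from the median of MKI67, left medians of 0.727 for mitosis pairs, 0.172 for S phase pairs and -0.17 between the phases. The S phase median depended on the scaling, at 0.570 with TPM as deposited. Partners that act together were not always matched. CCNB1 and CDK1 correlated with r = 0.9498, and CCNB2 and CDC20, a cyclin and an activator of its destruction, with r = 0.955. The 15 pairs of MCM2 to MCM7, which form 1 hexamer, had a median r of 0.495 and ran from -0.19 for MCM2 with MCM6 to 0.826 for MCM6 with MCM7. RRM1 and RRM2, the subunits of ribonucleotide reductase, had an r of -0.073, and CCNE1 and CCNE2, the E-type cyclins, 0.038.

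MKI67 was then compared with each of the other 14839 genes tested, with an exact permutation test over the 5040 orders of the 7 mice (two-sided). A positive r with an unadjusted p under 0.05 was found for 17 of the 20 other mitosis genes tested and for 1 of the 14 S phase genes, TK1, against 2.68% of all genes. Of the 8 mitosis genes under the filter on low values, 7 also had one. With Benjamini-Hochberg adjustment over all 14839 genes no correlation passed, and the lowest adjusted p of the exact test was 0.589. With Spearman's rho and its exact test no correlation passed after adjustment either, and the lowest adjusted p was 0.841.

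TK1 had the highest r with MKI67 of all genes tested, 0.995 (exact p = 0.000198, which is the smallest that 5040 orders can give, adjusted p = 0.589), and a rho of 1 (exact p = 0.000397, adjusted p = 0.841). Without the 2 outer mice its r was 0.979. BIRC5, PRC1 and CDCA8 ranked 4th, 5th and 6th with r = 0.982, 0.974 and 0.972 (exact p = 0.000397, 0.000595 and 0.00119), and their rho was 0.964, 0.964 and 0.857 (exact p = 0.00278, 0.00278 and 0.0238). Without the 2 outer mice these became 0.949, 0.912 and 0.913. TOP2A ranked 10th with r = 0.966 (exact p = 0.00238, adjusted p = 0.696) and rho = 0.893 (exact p = 0.0123), and kept an r of 0.832. Among the 20 genes with the highest r, 7 belonged to the 45, and SUV39H2, a histone methyltransferase, and GSE1 ranked 2nd and 3rd with r = 0.989 and 0.987.

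The tested mitosis genes without a positive r at an unadjusted exact p under 0.05 were AURKA (r = 0.237, exact p = 0.578), BUB1B (r = -0.094, exact p = 0.838) and HMGB2 (r = -0.19, exact p = 0.686). CENPE, under the filter, missed this threshold at r = 0.704 (exact p = 0.0813), so it is not shown to move apart from MKI67. HMGB2 had an r of 0.893 once the 2 outer mice were left out, so its value rested on them. KIF23, a kinesin of cytokinesis, went the other way, from 0.787 to -0.25. The S phase genes with the lowest r were MCM6 (r = -0.70, exact p = 0.0764) and MCM7 (r = -0.64, exact p = 0.121), which without the outer mice stood at -0.69 and -0.89. The median r with MKI67 was 0.895 over the 28 other mitosis genes and 0.266 over the 16 S phase genes. Without the 2 outer mice these medians were 0.792 and -0.31. Over all genes tested the median was -0.0096, and 0.031 without the 2 outer mice.

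**Figure D4:**
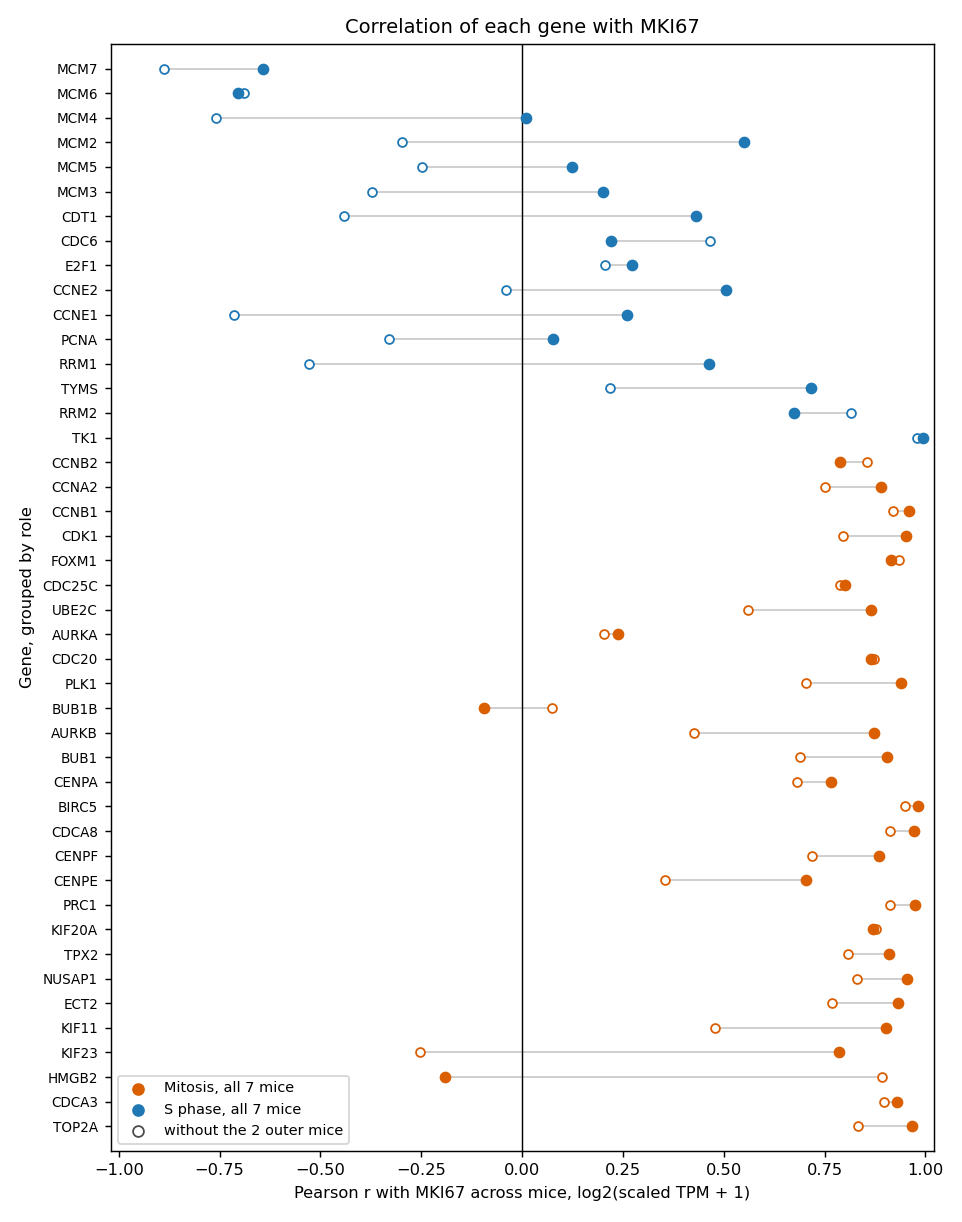
Filled points give Pearson's r of each gene with MKI67 over 7 mice on log2(scaled TPM + 1), and open points give r without βPrlR+/- mouse 2 and Prlr+/- mouse 2. Orange mitosis genes gather between 0.70 and 0.98 except AURKA, BUB1B and HMGB2, and blue S phase genes are spread from -0.70 to 0.995.

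A second list of 84 cell cycle genes outside the 45 was read in the same way. Of these, 79 were found and 39 tested. A positive r with MKI67 at an unadjusted exact p under 0.05 was found for 16 of the 39, against 2.68% of all genes. The median r of the 39 was 0.663, against -0.0096 over all genes tested. Among the 39 tested, 18 were highest in Prlr+/- mouse 2 and 14 lowest in βPrlR+/- mouse 2, against 21.7% and 12.2% of all genes tested. Over all 79, of which the rest lay under the filter, the counts were 49 and 38. Other genes moved with these mice too. The 11 acinar markers found matched 12 rows, since AMY2B names 2 when case is ignored, and all 12 were lowest in βPrlR+/- mouse 2. Their summed scaled TPM came to 39721, 4731, 39039 and 14062 in βPrlR+/- animals 1 to 4, against 13106, 32996 and 16762 in Prlr+/- animals 1 to 3, so Prlr+/- mouse 2 was high but below βPrlR+/- mice 1 and 3. None of the markers was listed at 0 in all mice, and the part of acinar tissue in the mitosis values was not tested.

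The summed level of 8 known targets of prolactin and STAT5 came to 377, 369, 281 and 317 scaled TPM in βPrlR+/- animals against 334, 474 and 315 in Prlr+/- animals. The 8 were TPH1, TPH2, CISH, SOCS2, PRLR, IVD, CLDN8 and EHHADH, of which IVD was the most abundant. Prlr+/- mouse 2 was highest for the sum and for 5 of the 8 genes, against 21.7% of all genes tested. βPrlR+/- mouse 2 was lowest for none of the 8, against 12.2% of all genes tested. Among these 8, the receptor's own gene, PRLR, measured 55.9, 38.5, 45.5 and 38.6 scaled TPM in βPrlR+/- animals against 36.3, 50.4 and 35.6 in Prlr+/- animals, with overlap of the groups. The part of these 8 genes in the level of MKI67 was not tested. Macrophage markers summed to 36.1 to 102 scaled TPM, lymphocyte markers to 12.9 to 22.8 and endothelial markers to 138 to 197. Prlr+/- mouse 2 was at 80.1, 15.0 and 150, and βPrlR+/- mouse 2 at 49.4, 22.8 and 184. Fibroblast and pericyte markers summed to 65.6, 46.4, 55.1 and 47.9 scaled TPM in βPrlR+/- animals against 34.9, 47.7 and 56.4 in Prlr+/- animals. The sum was lowest in the 2 mice that were also low for the mitosis genes. Prlr+/- mouse 2, which was high for the mitosis genes, came next at 47.7. Of these 6 markers, 3 were lowest in βPrlR+/- mouse 2, against 12.2% of all genes tested. Insulin transcripts made up 46.1% to 58.9% of the TPM, and size factors ran from 0.869 to 1.15.

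The comparison that the design implies is Prlr+/- over βPrlR+/- mice. No gene of the 45 differed between the groups beyond the spread of the mice. By limma's moderated test, none of the 35 tested had an adjusted p under 0.05, against 0.0404% of all 14840 genes, and none had an unadjusted p under 0.05, against 4.28% of all genes. For the 10 genes under the filter, a fit over all genes above 0 gave the same count of 0. The groups overlapped for all 45 genes, and they did not for 5.01% of all genes tested. Shares of this size give few genes in a set of 35, and these genes move together. The counts of 0 are therefore not read as a trait of the set. The lowest exact permutation p of the 45 was 0.114, for BIRC5, where 35 splits of the mice allow 0.0286.

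Direction was mostly towards Prlr+/- mice, with wide intervals. Of the 45 log2 fold changes on the log2(scaled TPM + 1) scale, which understates the change of low genes, 38 were above 0, 28 of them among the 29 mitosis genes, against 57.6% of all genes tested. Because the mitosis genes move together between mice, these 28 are not 28 separate observations. The count of 38 became 26 without Prlr+/- mouse 2, 31 without βPrlR+/- mouse 2 and 28 with TPM as deposited. The median was 0.13 for the mitosis genes, 0.0087 for the S phase genes, 0.071 for the other cell cycle genes tested (32 of 39 above 0) and 0.019 over all genes tested. Leaving out Prlr+/- mouse 1 raised the mitosis median to 0.33, with 11 of the 37 genes tested in that fit at an unadjusted p under 0.05, against 4.04% of all genes in the same fit and none of the 37 at an adjusted p under 0.05, and leaving out Prlr+/- mouse 2 lowered it to 0.022. Without βPrlR+/- mouse 2 it was 0.071 and without βPrlR+/- mouse 4 it was 0.20, while TPM as deposited gave 0.055 and a pseudocount of 0.1 gave 0.24.

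BIRC5 had the largest fold change, 0.40 (95% CI -0.024 to 0.83, adjusted p = 0.99996 by limma), with means of 0.5001 ± 0.163 scaled TPM (SD, n = 4) in βPrlR+/- and 1.021 ± 0.520 (SD, n = 3) in Prlr+/- mice. MKI67 followed with 0.37 (95% CI -0.13 to 0.86) and means of 0.480 ± 0.224 and 0.942 ± 0.527 scaled TPM. TOP2A was at 0.28 (95% CI -0.33 to 0.89), CDK1 at 0.23 (-0.18 to 0.64) and PRC1 at 0.25 (-0.13 to 0.64). The size of these values moved with single mice. Without Prlr+/- mouse 2 the log2 fold change was 0.22 for BIRC5, 0.18 for MKI67, 0.038 for TOP2A and 0.10 for PRC1, and without Prlr+/- mouse 1 it was 0.60, 0.59, 0.54 and 0.43. CDK1 was at 0.41 without Prlr+/- mouse 1 and at 0.15 without βPrlR+/- mouse 2, where TOP2A was at 0.11. With a pseudocount of 0.1, which compresses low genes less, MKI67 was at 0.81 and BIRC5 at 0.84, and neither passed the adjusted threshold. The intervals above hold 0, and they also hold differences of more than 0.6 on the log2 scale, so neither no difference nor a sizeable one is shown.

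For the genes with little spread the intervals were narrower. PCNA had a log2 fold change of 0.10 (95% CI -0.066 to 0.27) with means of 27.9 ± 2.01 and 30.03 ± 1.18 scaled TPM. MCM7 had one of -0.086 (-0.24 to 0.067) with means of 5.40 ± 0.177 and 5.03 ± 0.365. MCM3 had the lowest value of the 45, -0.11 (-0.36 to 0.13), and MCM4, MCM5, MCM6, CDC6 and BUB1B were the other genes below 0. The value of MCM3 was -0.19 without Prlr+/- mouse 2 and -0.057 without Prlr+/- mouse 3. TK1 was at 0.20 (-0.14 to 0.54), E2F1 at 0.19 (-0.20 to 0.58), UBE2C at 0.17 (-0.40 to 0.74), CCNB2 at 0.13 (-0.53 to 0.79), CENPA at 0.094 (-0.44 to 0.63) and HMGB2 at 0.0048 (-0.30 to 0.31). The direction of 5 of these genes turned with the setting. CCNB2 was at -0.094 and HMGB2 at -0.13 without Prlr+/- mouse 3, UBE2C was at -0.0046 without Prlr+/- mouse 2, CENPA was at -0.047 without βPrlR+/- mouse 2, and PCNA was at -0.054 with TPM as deposited.

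**Figure D5:**
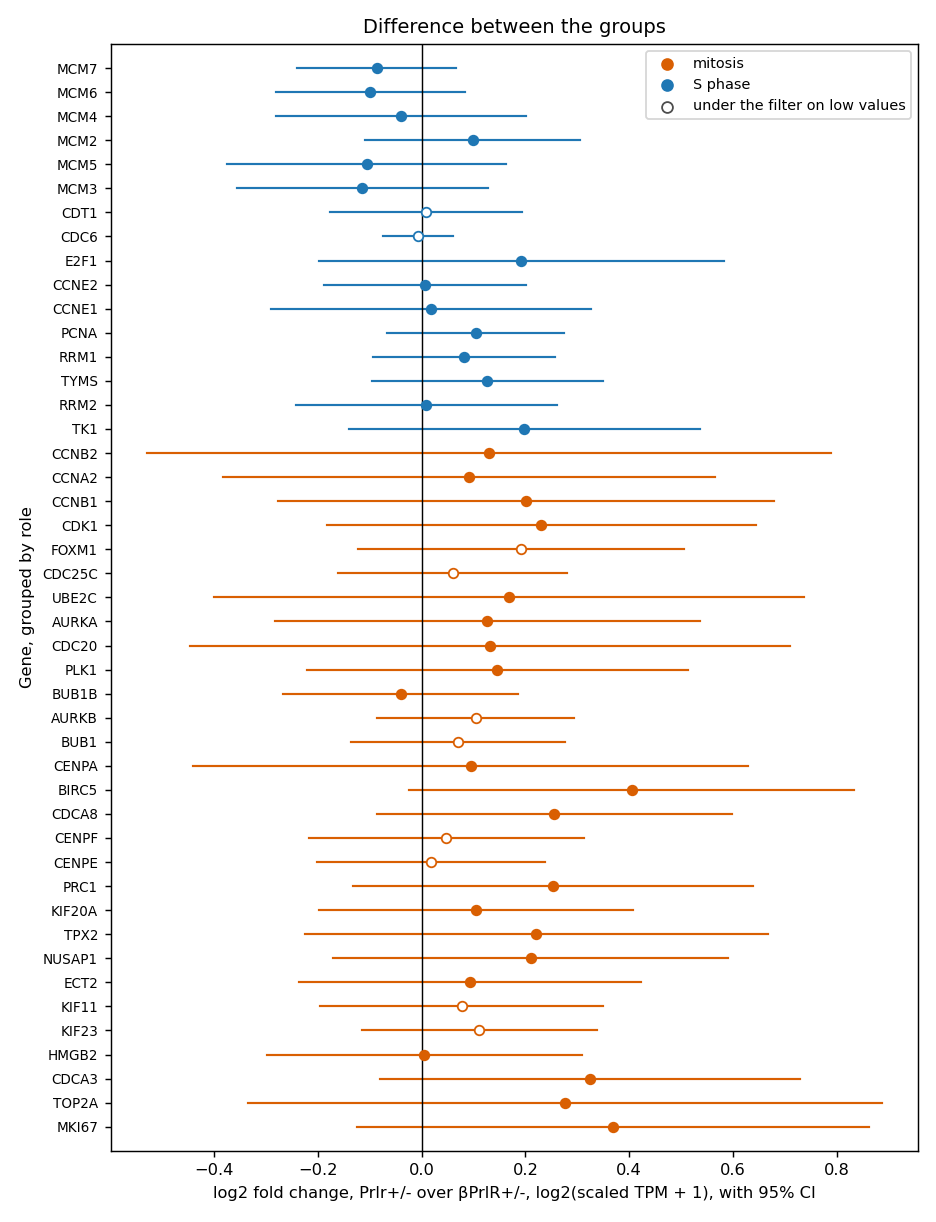
Points give the log2 fold change of each gene, Prlr+/- over βPrlR+/- mice, on log2(scaled TPM + 1), with 95% confidence intervals from limma, and open points are genes under the filter on low values, fitted with all genes above 0. All 45 intervals cross 0, and those of the mitosis genes tested are mostly wider than those of the S phase genes.

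The deposited transcript values divide some genes further. MKI67 itself lay mainly on the predicted transcripts XM_006507412.3 (52.1%) and XM_006507413.3 (43.2%), and its curated transcript NM_001081117.2 held 0.000304%. XM_006507412.3 measured 0.582 scaled TPM in Prlr+/- mouse 2 and 0.635 in Prlr+/- mouse 3, whereas XM_006507413.3 measured 0.859 and 0.169. Both were lowest in βPrlR+/- mouse 2, at 0.105 and 0.0199 scaled TPM. E2F1 was carried for 93.0% by the transcript NM_001291105.1, whose r with MKI67 was 0.192, while NM_007891.5, with 6.98% of the gene, had an r of 0.830. For TYMS, thymidylate synthase, the main transcript NM_021288.4 (86.0%) had an r of 0.849, against 0.717 for the whole gene. BIRC5 was split between NM_009689.2 (57.4%) and NM_001012273.1 (42.6%), with r = 0.958 and 0.538. The first of these was listed at 0 in βPrlR+/- mouse 2 and reached 1.07 scaled TPM in Prlr+/- mouse 2, and the second ran only from 0.208 to 0.485. AURKA was carried for 81.4% by NM_001291185.1, with an r of -0.081. How Kallisto shares reads between such similar transcripts at these low levels was not tested, so the split of a gene is less certain than its sum.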

How the data were processed

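Islet poly(A) RNA from 7 mice, 1 library per mouse, was sequenced as strand-specific libraries, and the authors assigned reads to mouse RefSeq transcripts with Kallisto (version 0.42.4 per the submitters' processing notes). The deposited values were handled as TPM, because each mouse sums to 1000000, although the methods name FPKM. The methods give reads per library only as a range, TPM keeps no counts per gene, and the genome build is not given in the sources used here. TPM was divided by median-ratio size factors, and genes with a mean of at least 0.5 TPM were compared on the log2(scaled TPM + 1) scale by limma 3.58.1 (R 4.3.3, mean-dependent variance, Benjamini-Hochberg over 14840 genes, threshold 0.05), a fit tested on simulated data. Exact two-sided permutation tests, correlations and figures used Python 3.11.15, numpy 2.4.6, pandas 2.3.3, scipy 1.17.1 and matplotlib 3.10.9. Mice were numbered in accession order. The labels do not say whether mice shared a litter, and no batch is given.

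The genes, their roles and the other lists were chosen with earlier results of these data known. Given in every mouse were MKI67, TOP2A and, in each role, the tested gene with the highest mean and the one with the largest absolute log2 fold change, besides any gene called or with groups apart, of which there was none. Other genes and the correlated pairs were named after their values were seen. Alternatives were unscaled TPM (as deposited), scaling by the upper quartile, a smaller pseudocount (0.1), no filter beyond a value above 0, Spearman's rho, deviations from group means and leaving out each mouse. Leaving out both outer mice was added after seeing the data.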

Additional observations from a re-analysis of the deposited data

Results flagged for a closer look

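In the 4 βPrlR+/- mice, 6 of the 45 genes had 1 mouse apart from the other 3, with a gap to its nearest neighbour that took more of the whole range than Dixon's 95% critical value for 4 samples allows. The mouse was βPrlR+/- mouse 2, the lowest, in all 6. The gap's share of the range was 0.847 for TOP2A, 0.831 for CCNA2, 0.855 for CDCA8, 0.983 for CENPF, 0.924 for KIF11 and 0.877 for ECT2, at levels of 0.251, 0.685, 0.189, 0.1004, 0.224 and 0.277 scaled TPM in that mouse. Among the 35 genes tested, 4 were set apart in this way with βPrlR+/- mouse 2 lowest, against 0.418% of all 14840 genes tested, of which 5.95% had a gap of this size in any of the 4 mice. Chance gives such a gap in about 1 group in 20, and these genes move together, so the 6 are not separate events.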

How the results depend on the processing

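None of the 45 genes passed the adjusted threshold in any of the 11 other settings where it was tested, and the lowest adjusted p by limma was 0.590. All 45 were tested only in the fit of all genes above 0, against 33 to 37 in the others. Over all genes, 6 passed, against 13 with TPM as deposited and 16 with a pseudocount of 0.1, and 2 to 16 when 1 mouse was left out, with the lowest count without βPrlR+/- mouse 4 and the highest without βPrlR+/- mouse 3. With TPM as deposited the median over all genes shifted to -0.12 (log2 fold change), from 0.019 after scaling, 28 of the 45 genes were above 0, and PCNA was at -0.054 and HMGB2 at -0.15. HMGB2 was at -0.013 with upper-quartile scaling. Leaving out each mouse in turn gave CCNB2 -0.094 to 0.46, UBE2C -0.0046 to 0.38, CENPA -0.047 to 0.31 and HMGB2 -0.13 to 0.096. The cause was not tested. The other 9 named genes kept their direction under these settings but not their size, with MKI67 at 0.18 to 0.59, BIRC5 at 0.22 to 0.60, TOP2A at 0.038 to 0.54, PRC1 at 0.10 to 0.43, TK1 at 0.082 to 0.34 and E2F1 at 0.075 to 0.30 when 1 mouse was left out. MCM3 ran from -0.19 to -0.057 and MCM7 from -0.13 to -0.052 when 1 mouse was left out. CDK1 was not fitted without Prlr+/- mouse 2, where its mean lay under the filter (difference of log2 means 0.068). A count model could not be run on TPM, so DESeq2 was not run. No paired analysis was possible because replicate numbers came only from accession order. TPM keeps no read counts, so the counting error of the lowest genes was not estimated.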
